A study of Mus musculus with 10 samples.

Results

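The potassium-secreting epithelial cells of the old mouse inner ear were examined in single-cell libraries of the cochlea and the vestibular organs. A cell was chosen if it held a transcript of at least 2 of Kcne1, Kcnq1 and Esrrb and of fewer than 3 of the hair cell genes Myo6, Myo7a, Pou4f3, Tmc1, Kncn and Gfi1. This rule found 90 of 17696 cells that passed quality limits, 26 of 7272 in the cochlea and 64 of 10424 in the vestibule. The hair cell condition removed no cell. Below, the cochlear cells are called marginal-like and the vestibular ones dark-like.

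All animals were wild-type CBA/J mice aged 22 months, so every value below comes from old mice and none is compared with young tissue. The study used mice of both sexes, pooled several mice in each library, loosened the dissected epithelia with collagenase and captured cells with a droplet kit that reads the 3′ ends of transcripts. The labels name the tissue cochlear or vestibular sensory epithelium. The paper states that whole organs were dissected and that the sensory epithelia were digested. Each organ had 5 libraries. Replicate 2 was left out, because 1313 of its 1313 cochlear and 1633 of its 1641 vestibular barcodes stood in replicate 1 of the same organ with nearly the same counts (median r = 0.955 and 0.969 across shared barcodes), which left 4 libraries per organ. Other pairs of libraries shared at most 41 barcodes, and no chosen barcode occurred in 2 libraries. Total UMIs (unique molecular identifiers, 1 for each captured transcript) ranged from 2738036 in cochlea replicate 1 to 26974948 in cochlea replicate 3.

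Endolymph, the potassium-rich fluid over the hair cells, is made by marginal cells of the stria vascularis in the cochlea and by dark cells beside the vestibular sensory patches. These cells take up potassium at the basolateral side through the Na,K-ATPase and the cotransporter NKCC1 (encoded by Slc12a2), recycle chloride there with the help of barttin (Bsnd), and release potassium at the apical side through the channel formed by KCNQ1 and KCNE1. Esrrb encodes an orphan nuclear receptor needed for marginal cell identity. In the stria, marginal cells interdigitate with intermediate cells, which are melanocyte-derived and carry the potassium channel encoded by Kcnj10.

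On the mm10 build, Kcne1 lies at chr16:92345982-92359468 on the minus strand, Kcnq1 at chr7:143106362-143427042 on the plus strand and Esrrb at chr12:86361117-86521628 on the plus strand. Their values chose the cells and are given only as a description. In CPM (UMIs of the gene per 1000000 UMIs, summed over the chosen cells of a library), Kcne1 stood at 1015 in cochlea replicate 3, and at 1637, 1791, 2855 and 1699 in vestibule replicates 1, 3, 4 and 5. Kcnq1 stood at 217 in the cochlea and at 248, 285, 385 and 482 in the same vestibular libraries, and Esrrb at 260 and at 347, 313, 414 and 583. The single chosen cell of cochlea replicate 5 had 1035 CPM of Kcne1, none of Kcnq1 and 776 CPM of Esrrb. For each of the 3 genes cochlea replicate 3 lay below every vestibular library, but for Esrrb the cell of replicate 5 lay above them. All 3 genes were found together in 13 of the 26 marginal-like and 26 of the 64 dark-like cells. The most frequent pair without the third gene was Kcne1 with Esrrb in the cochlea (8 cells) and Kcne1 with Kcnq1 in the vestibule (20 cells).

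These counts are small next to single molecules, so they were set beside cells of other types. Among 457 macrophage-gated cochlear cells outside the rule (a UMI in at least 3 of 6 macrophage markers, median 2653 UMIs), 0.219% had a UMI of Kcne1, 0.219% of Kcnq1 and none of Esrrb. Of the 458 cells that passed this gate, the other 1 met the rule and is counted among the marginal-like cells. In 305 vestibular macrophage-gated cells (median 2614 UMIs) the share with Kcne1 was 0.984%. Melanocyte-gated cells, those with a UMI in at least 2 of Dct, Tyr and Mlana, had more. Of 130 such cochlear cells outside the rule (median 3054 UMIs), 13.1% had a UMI of Kcne1, 0.769% of Kcnq1 and 3.08% of Esrrb, and of 165 vestibular ones (median 1885 UMIs) 2.42% had Kcne1. Other epithelial cells (a UMI in at least 2 of Epcam, Krt8 and Krt18) had a UMI of Kcnq1 in 6.41% of 484 cochlear cells (median 5089.5 UMIs) and 8.24% of 1383 vestibular cells (median 2523 UMIs), and of Kcne1 in 0.207 and 0.795%. The shares differed between cell types, and how much of each is free RNA was not tested. The chosen cells of cochlea replicate 3 had a median of 6160 UMIs.

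The chosen cells were unevenly spread over libraries. In the cochlea, 25 of 5070 kept cells of replicate 3 met the rule, a share of 0.493% (95% exact binomial interval 0.319 to 0.727%), and 1 of 936 in replicate 5 (0.107%, 0.0027 to 0.594%). None of 571 cells in replicate 1 and none of 695 in replicate 4 did, which allows shares of up to 0.525% and 0.432% as 3 cells of the total, with exact binomial upper ends of 0.644 and 0.529%. Almost all that follows on marginal-like cells is thus cochlea replicate 3. Every vestibular library held some. The dark-like shares were 0.461% in replicate 1 (4 of 867 cells), 0.717% in replicate 3 (39 of 5438), 0.572% in replicate 4 (14 of 2448) and 0.419% in replicate 5 (7 of 1671).

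The mean share was 0.150% ± 0.234 (SD, n = 4) in the cochlea and 0.542% ± 0.133 (SD, n = 4) in the vestibule. The ranges of the organs overlapped, since cochlea replicate 3 lay above vestibule replicates 1 and 5, and the difference did not pass an exact two-sided permutation test over libraries (p = 0.0857, adjusted over the 3 shares tested p = 0.133, smallest possible p = 0.0286). After every kept cell had been thinned to 1000 UMIs, the shares were 0.197% in cochlea replicate 3 and 0 in the others, against 0.231, 0.405, 0.204 and 0.299% in the vestibule. These no longer overlapped, and the exact permutation p, not adjusted, was 0.0286, the smallest the design can give. A share reflects how the tissue was dissected and which cells survived as much as how many there were, and these cannot be told apart.

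**Figure D1:**
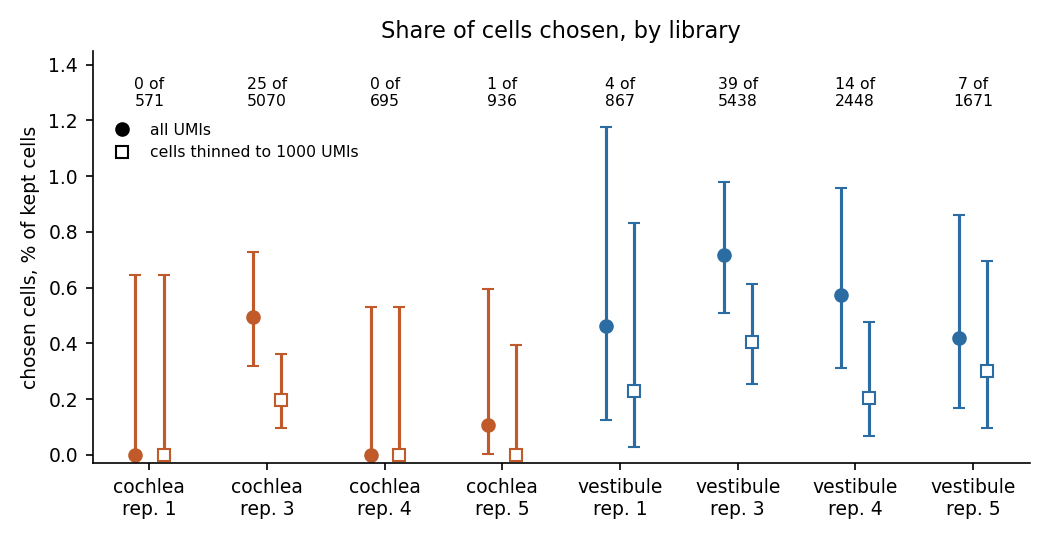
Share of kept cells that met the rule (%), for 4 cochlear and 4 vestibular libraries; filled circles use all UMIs, open squares cells thinned to 1000 UMIs, and bars are 95% exact binomial intervals that cover counting error only. The chosen and kept cells of each library are written above it, from 0 of 571 in cochlea replicate 1 to 39 of 5438 in vestibule replicate 3.

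The name of the cells was checked against 4 marginal and dark cell genes that the rule did not use, namely Slc12a2, Atp1b2, Bsnd and Lmx1a. At least 2 of them had a UMI in 22 of 26 marginal-like and 48 of 64 dark-like cells. No marginal-like cell lacked all 4, and 4 dark-like cells did. The markers went against the name in part of the cells. The 4 marginal-like cells with fewer than 2 of these genes had Dct, the melanin synthesis enzyme gene, at 29558 CPM, Slc12a2 at 2229 CPM, and no UMI of Atp1b2. The 16 such dark-like cells had Slc12a2 at 648 CPM and the fibrocyte gene Coch at 1891 CPM. Of these Coch UMIs, 38 lay in 1 cell. Coch was at 4956 CPM in other vestibular cells and at 1494 CPM in macrophage-gated ones, so its level does not mark the 16 as fibrocytes. Both groups stayed in, since the rule chose them. Summed over the list, the level was 7371 CPM in marginal-like cells against 182 CPM in all other kept cochlear cells, and 7319.5 CPM in dark-like cells against 213 CPM in other vestibular cells. Macrophage-gated cells held 121 and 78.5 CPM. The cells were chosen on expression, so these contrasts are a description and have no test.

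Slc12a2, the potassium loader, was the most abundant of these markers. It stood at 5987 CPM in cochlea replicate 3 and 5694 CPM in the single chosen cell of cochlea replicate 5, and at 10861, 4987, 6169 and 4387 CPM in vestibule replicates 1, 3, 4 and 5. Other kept cells had 97.7 CPM in the cochlea and 100.2 CPM in the vestibule. All 26 marginal-like cells had a UMI of Slc12a2, as did 55 of the 64 dark-like cells, while 9 dark-like cells had none. Slc12a2 was not confined to them. In cochlear macrophage-gated cells 15.5% had a UMI of it, and in cochlear melanocyte-gated cells 78.5% did, at 1151 CPM.

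Slc12a2 differed with which rule genes a cell held, and these classes use the rule's own values. Cells with all 3 had 6589 CPM in the cochlea and 6612 CPM in the vestibule, and cells with exactly 2 had 5052 and 3334 CPM. The pairs were unlike each other. Kcnq1 with Esrrb gave 8585 CPM in 2 cochlear cells and 0 in 1 vestibular cell, Kcne1 with Kcnq1 gave 4320 and 4817 CPM, and Kcne1 with Esrrb 4031 and 1944 CPM. Just outside the rule, the 117 cochlear and 272 vestibular cells with a single rule gene had 418 and 379 CPM, and cells with none 91.7 and 103 CPM. By gene, the level was 1482 CPM with Kcne1 alone, 146 CPM with Kcnq1 alone and 155 CPM with Esrrb alone in the cochlea, and 865, 222 and 624 CPM in the vestibule. Of the cells just outside, the 37 cochlear cells with Kcne1 alone carried Dct at 15201 CPM.

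The pump and channel genes were described next, by their place in the transport route. Atp1b2, a beta subunit gene of the Na,K-ATPase, stood at 1300 CPM in cochlea replicate 3 and at 2876, 1498, 1908 and 1724 CPM in the 4 vestibular libraries. The cochlear library lay below all vestibular ones, and other kept cells held 76.8 CPM in the cochlea and 103 CPM in the vestibule. Atp1b1, another beta subunit gene, had the opposite order. It stood at 1405 CPM in cochlea replicate 3 and 259 CPM in the cell of replicate 5, and at 99.2, 784, 133 and 127 CPM in the vestibule, where 68.5% of its UMIs came from 1 cell. In other kept cells it was at 756 and 432 CPM.

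Bsnd was sparse. It stood at 55.7 CPM in the cochlea and at 149, 51.3, 74.0 and 50.7 CPM in the vestibule, against 0.13 and 0.39 CPM in other cells, and it was seen in 6 of 26 and 12 of 64 chosen cells. With so few molecules per cell, absence from a cell says little. Kcnj10 was at 601 and 1035 CPM in cochlea replicates 3 and 5, at 406 CPM in vestibule replicate 3 and at 0 in the other vestibular libraries. In the vestibule 74.7% of its UMIs came from 1 cell, and melanocyte-gated cells had 1085 CPM in the cochlea and 847 CPM in the vestibule. The potassium channel gene Kcnk1 was at 130 CPM and at 347, 177, 296 and 152 CPM. Stk39, whose kinase activates NKCC1, was at 241 CPM and at 248, 261, 325 and 330 CPM, and at 518 CPM in the cell of cochlea replicate 5. Other kept cells had 234 CPM in the cochlea, close to replicate 3, and 99.0 CPM in the vestibule.

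**Figure D2:**
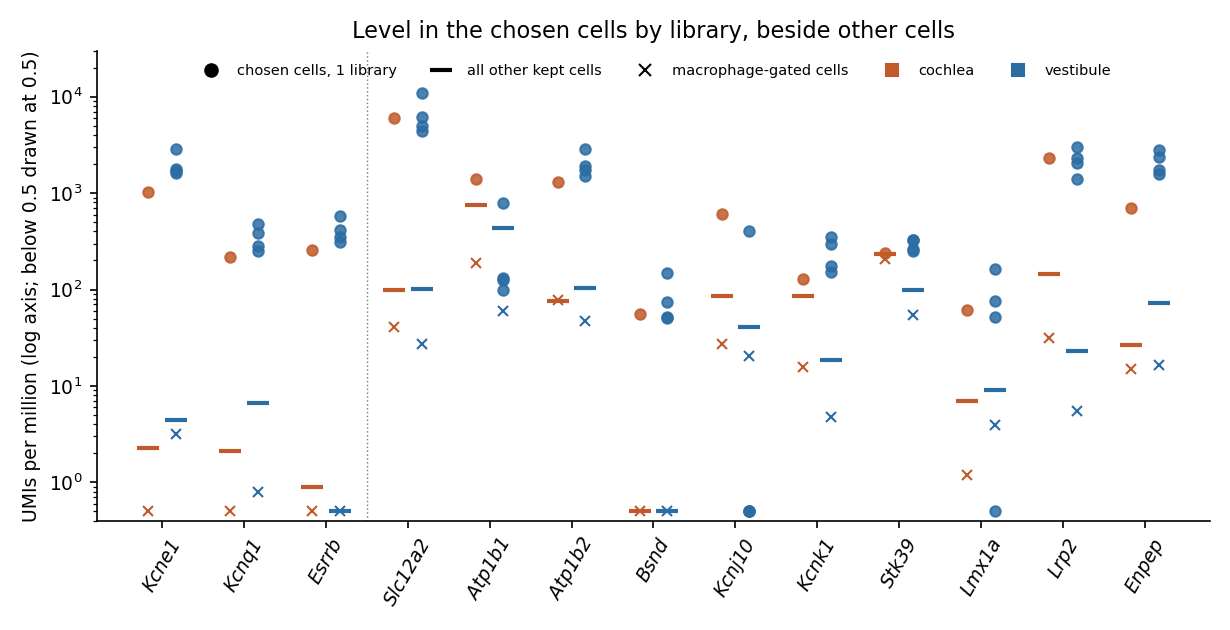
Level in CPM (log axis) of the 3 rule genes, left of the dotted line, and 10 further genes; circles are the chosen cells of 1 library (cochlea replicate 3, vestibule replicates 1, 3, 4 and 5), dashes all other kept cells and crosses macrophage-gated cells of that organ. Slc12a2 lies at 4387 or above in each library drawn and near 100.2 or below in other cells, whereas Stk39 lies close to its level in other cells in the cochlea.

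Across the whole potassium secretion list of 13 genes, the sum was 10158 CPM in marginal-like and 8929.7 CPM in dark-like cells, against 2167 and 1077 CPM in other kept cells. Of the 13 genes, 4 lay at least 2-fold above other kept cells in the cochlea and 8 in the vestibule, and 1 and 2 that far below. The same shares were taken over genes with at least 20 CPM in the chosen or the other kept cells (7547 cochlear, 7946 vestibular). Of these, 11.4% in the cochlea and 14.6% in the vestibule lay that far above and 26.0 and 21.2% that far below. Counts within lists used no such floor, so these shares are only a rough guide beside them. Of the 8, Fxyd2 and Kcnj10 owed most of their UMIs to 1 cell (97.1 and 74.7%). Without it, Fxyd2 was at 6.72 CPM against 21.9 CPM in other vestibular cells, and Kcnj10 at 73.9 against 40.9 CPM. In the cochlea Kcnj10 was 1 of the 4. It was at 67.9 CPM in the 9 marginal-like cells with fewer than 2 melanocyte markers, described below, against 85.9 CPM in other cochlear cells.

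Genes outside transport were also high in the cells beside all other kept cells. By a fixed rule of size (at least 100 CPM, ranked by the lowest ratio to other kept cells over libraries with at least 10 chosen cells), Rgs4, Slc12a2 and Zfp979 were among the top 12 in both organs. Rgs4, a regulator of G protein signalling, was 32.3-fold above other cells in the cochlea and 125-fold in the lower of the 2 vestibular libraries ranked. Tacr3, the neurokinin B receptor gene, led the cochlear list with a UMI in 13 of 26 cells. The other kept cells of cochlea replicate 3 held 1 UMI of it. Dnase1, encoding a secreted DNA-cutting enzyme, followed at 327-fold. The cochlear list also held Dclk1, a microtubule-linked kinase gene (49.4-fold), and Enpep, the aminopeptidase A gene (30.4-fold). Dclk1 was not confined to these cells, with a UMI in 51.5% of cochlear melanocyte-gated and 23.6% of other cochlear epithelial cells. The list further held the melanocyte marker Mlana (23.0-fold), and Bglap3 and Wfdc18, with 61.9 and 96.2% of their UMIs in 1 cell. The vestibular list held Tesc, encoding the calcium-binding tescalcin (62.4-fold), Lrp2, the endocytic receptor megalin (59.6-fold), Hgf, a growth factor gene (49.3-fold), and Cox7a1, a cytochrome oxidase subunit gene (39.3-fold).

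Lrp2 and Enpep were above other kept cells in both organs. Lrp2 was at 2340 CPM in cochlea replicate 3 and at 2033, 1414, 3033 and 2333 CPM in the vestibule, so the organs overlapped, against 146 and 23.2 CPM in other cells. Other cochlear epithelial cells also held it, at 703 CPM and with a UMI in 39.9%. Enpep was at 706 CPM and at 2827, 1745, 1598 and 2384 CPM, lower in cochlea replicate 3 than in every vestibular library, and at 327 CPM in other vestibular epithelial cells. Tesc was at 495 CPM and at 1141, 765, 1331 and 1192 CPM. Cox7a1 was at 495 CPM and at 2083, 1036, 1183 and 1065 CPM. In both, cochlea replicate 3 lay below every vestibular library. The cell of cochlea replicate 5 had 1553 CPM of Enpep, below the vestibular libraries, 1294 CPM of Tesc, above 3 of them, and no Cox7a1.

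Of 22 transcription factor genes of the otic epithelium, 7 stood at least 2-fold above other cells in the cochlea and 11 in the vestibule, while 8 and 6 stood 2-fold below. Among all genes with at least 20 CPM, 11.4 and 14.6% stood above and 26.0 and 21.2% below. Hmx2 and Hmx3, homeobox genes of the vestibular primordium, were at 80.5 and 31.0 CPM in cochlea replicate 3. In the vestibule Hmx3 stood at 149, 93.3, 340 and 304 CPM, above the cochlear library in each. Hmx2 was closer between the organs in cells with fewer than 2 melanocyte markers, described below. There it was at 159 CPM in 9 marginal-like and 195 CPM in 60 dark-like cells, and Hmx3 at 22.6 and 202 CPM. Lmx1a was at 61.9 CPM in the cochlea and at 0, 51.3, 163 and 76.1 CPM in the vestibule. Gata3 summed to 139 CPM in marginal-like and 120 CPM in dark-like cells, while other kept cells had 341 CPM in the cochlea and 8.04 CPM in the vestibule. Pendrin (Slc26a4) and Foxi1, which mark neighbouring bicarbonate-secreting epithelium, had no UMI in any chosen cell.

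Respiratory chain genes summed to more than in other kept cells in both organs. The 96 nuclear genes of the chain summed to 60302 CPM in marginal-like cells and 67983 CPM in dark-like cells, against 36270 and 24804 CPM in other kept cells. In the vestibule 70 of the 96 stood at least 2-fold above other cells, beside 14.6% of all genes with at least 20 CPM. In the cochlea 16 did, beside 11.4%. The 13 protein-coding genes of the mitochondrial genome summed to 155550 and 106280 CPM, against 66001 and 61001 CPM. By library, the median share of mitochondrial UMIs per chosen cell was 14.9 and 24.1% in cochlea replicates 3 and 5, and 6.50, 12.7, 3.64 and 11.2% in vestibule replicates 1, 3, 4 and 5. Other cells of the same libraries had 8.24, 4.64, 4.73, 7.53, 2.53 and 4.06%, lower in each of the 6 libraries.

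The organs' medians averaged 19.5% ± 6.50 (SD, n = 2) and 8.51% ± 4.18 (SD, n = 4), with no overlap, and the exact two-sided permutation p was 0.133, the smallest that 2 libraries against 4 allow. The difference was 6.42 percentage points without the single cell of cochlea replicate 5. The 25% limit on mitochondrial UMIs cuts this distribution, and 15 cochlear and 28 vestibular cells met the gene rule above it. With no limit the difference was 6.41 points (exact permutation p = 0.267) and the organs overlapped, with medians of 18.7 and 24.1% in the cochlea and 21.2% in vestibule replicate 1. The share also moved with markers of other cells, described below. The next medians are over cells pooled across libraries, and over all chosen cells they were 15.2% in the cochlea and 10.4% in the vestibule. Marginal-like cells with at least 2 melanocyte markers had a median of 17.3% and the rest 11.7%. Cells that carried at least 2 melanocyte markers or at least 3 fibrocyte, macrophage, endothelial or granulocyte markers were then left out. The order turned, to 9.69% in 8 cochlear and 10.4% in 48 vestibular cells, as the cochlear median fell. Without cells with at least 3 neuron markers too, the medians were 7.64 and 10.2%. The share of ribosomal protein UMIs had the opposite order, 7.14% ± 0.172 (SD, n = 2) against 11.6% ± 1.56 (SD, n = 4), with the same exact permutation p of 0.133. Other cells ran the other way, at 12.6 and 12.2% in cochlea replicates 3 and 5 and from 8.00 to 9.04% in the vestibular libraries.

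The organ comparison within the chosen cells asked which genes separate marginal-like from dark-like cells. The organ was not part of the rule, so it could be tested. UMIs were summed per library, and libraries with at least 10 chosen cells entered: cochlea replicate 3 (25 cells), vestibule replicate 3 (39 cells) and vestibule replicate 4 (14 cells). The lone cochlear library was assumed to vary as the vestibular ones do, and every p-value below rests on that. Of 3423 genes tested with edgeR's quasi-likelihood test, 79 (2.31%) passed an adjusted p of 0.05, 50 higher in the cochlea (1.46%) and 29 higher in the vestibule (0.847%), and 310 had an unadjusted p under 0.05. The median log2 fold change over all genes was -0.05. DESeq2 on the same sums called 4 genes higher in the cochlea (Dnase1, Wfdc18, Calb2 and Lgals1) and none higher in the vestibule, with 43 genes at an unadjusted p under 0.05. These 4 were named after their values were seen.

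Several calls came from single cells. In 17 of the 50 cochlear and 6 of the 29 vestibular calls, at least 50% of the UMIs in the higher organ lay in 1 cell. Neuronal genes (Snap25, Nefl, Nefm, Calb2) came from 1 cochlear cell of 13026 UMIs, and the granulocyte genes S100a8 and S100a9 from 1 vestibular cell of 10248 UMIs. Wfdc18, a secreted WAP domain protein gene, had 304 of its 316 cochlear UMIs in 1 cell. When the highest cell of each gene was left out of each library, an alternative chosen after seeing the data, 37 of the 50 cochlear calls could still be tested and 30 were called, and 24 of the 29 vestibular calls could be tested and 17 were called.

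Dnase1 did not rest on single cells. It lies at chr16:4036942-4040024 on the plus strand of mm10. Its level was 3560 CPM in cochlea replicate 3 and 3364 CPM in the cell of replicate 5, and 0, 159, 44.4 and 25.4 CPM in vestibule replicates 1, 3, 4 and 5. The organs did not overlap. A UMI of Dnase1 was present in 23 of 26 marginal-like and 12 of 64 dark-like cells, and the highest cochlear cell held 10.2% of its UMIs. The log2 fold change was 5.11 ± 0.47 (SE), with an adjusted p of 1.8e-24 by edgeR, and Dnase1 was called in 17 of 17 fits run.

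Igf1, the growth factor gene (chr10:87858265-87937042, plus strand), stood at 1492 CPM in cochlea replicate 3 and 776 CPM in replicate 5, and at 0, 163, 0 and 0 CPM in the vestibule. It was found in 23 of 26 marginal-like and 6 of 64 dark-like cells. Its log2 fold change was 4.01 ± 0.46 (SE), with an edgeR adjusted p of 1.1e-15, and it was called in 16 of 17 fits. Wfdc2, another secreted WAP domain protein gene, stood at 545 and 518 CPM in the cochlear libraries and at 0, 93.3, 29.6 and 101 CPM in the vestibule, with a UMI in 25 of 26 and 12 of 64 cells. Its log2 fold change was 3.08 ± 0.49 (SE), with an edgeR adjusted p of 9.6e-08.

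The other named genes higher in the cochlea were Fxyd3, Mlana, Gsta2, Rlbp1, Mt2, Bglap3 and Wfdc18. Fxyd3, a small regulator of the Na,K-ATPase (chr7:31068172-31076704, minus strand), was at 861 and 518 CPM in the cochlear libraries and at 0, 42.0, 0 and 0 CPM in the vestibule (log2 fold change 4.99, edgeR adjusted p = 5.7e-17). Fxyd3 was at 1138 CPM in the 17 marginal-like cells with at least 2 melanocyte markers, described below, and at 67.9 CPM in the other 9. Mlana, a melanosome protein gene, was at 582 and 259 CPM against 0, 65.3, 0 and 0 CPM. Gsta2, a glutathione transferase gene, was at 254 CPM against at most 46.7 CPM, and Rlbp1, a retinaldehyde-binding protein gene, at 186 CPM against at most 29.6 CPM, but neither had a UMI in the cell of cochlea replicate 5. For Mt2, a metallothionein gene, 46.1% of the cochlear UMIs lay in 1 cell, and for Bglap3 61.9%. Mt2 was called in 12 of 14 fits and Bglap3 in 3 of 7.

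On the vestibular side, 4 of the 10 named genes had no UMI in any of the 26 marginal-like cells. Their folds are thus lower bounds. Each sets the mean of the fitted vestibule replicates 3 and 4 against 3 UMIs in the cochlear library (18.6 CPM). Libraries below that mean give smaller folds. Calca, which encodes calcitonin and the neuropeptide CGRP (chr7:114631478-114636357, minus strand), was at 298, 177, 296 and 127 CPM in vestibule replicates 1, 3, 4 and 5. It was present in 24 of 64 dark-like cells and at 7.17 CPM in other vestibular cells. The mean of vestibule replicates 3 and 4 was at least 12.7-fold higher than the cochlear level, and Calca was called in 14 of 16 fits. Ctxn3, a cortexin gene, was at 149, 149, 325 and 76.1 CPM (mean of replicates 3 and 4 at least 12.8-fold higher). Slc7a10, an amino acid transporter gene, was at 49.6, 98.0, 192 and 50.7 CPM (mean of replicates 3 and 4 at least 7.81-fold higher). Ctxn3 was called in 11 of 14 fits and Slc7a10 in 5 of 13. Over all dark-like cells Ctxn3 was at 176 CPM, below the 254 CPM of other vestibular epithelial cells. The cytokine gene Ltb was at 0, 65.3, 163 and 0 CPM, so its libraries overlapped the cochlea at 0 once replicates 1 and 5 are counted. Its bound of 6.14-fold uses the mean of the fitted replicates 3 and 4, and it rested on 4 dark-like cells, of which 1 held 48% of its UMIs. It was called in 3 of 7 fits. Over all dark-like cells it was at 73.2 CPM, against 63.2 CPM in other vestibular cells.

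Cenpw, encoding a centromere protein (chr10:30194569-30200560, minus strand), was detected in both organs. It was at 12.4 CPM in cochlea replicate 3, from 2 UMIs, and at 298, 271, 355 and 507 CPM in the vestibule, with a UMI in 2 of 26 and 30 of 64 cells. Its log2 fold change was -4.34 ± 0.76 (SE), with an edgeR adjusted p of 1.4e-06, and it was called in 15 of 16 fits. Other vestibular cells had 10.6 CPM.

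Gchfr, the feedback regulator of tetrahydrobiopterin synthesis, was at 43.3 CPM in the cochlea and at 248, 289, 799 and 304 CPM in the vestibule (log2 fold change -3.32, edgeR adjusted p = 1.4e-05, called in 11 of 17 fits). Pla2g5, a secreted phospholipase gene, Gstm2, a glutathione transferase gene, Hmx3 and the interleukin receptor gene Il17re had log2 fold changes of -3.08, -2.36, -2.35 and -2.17. Each was called in at most 4 of the fits in which it could be tested. For all 4, the cochlear library lay below each vestibular library.

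**Figure D3:**
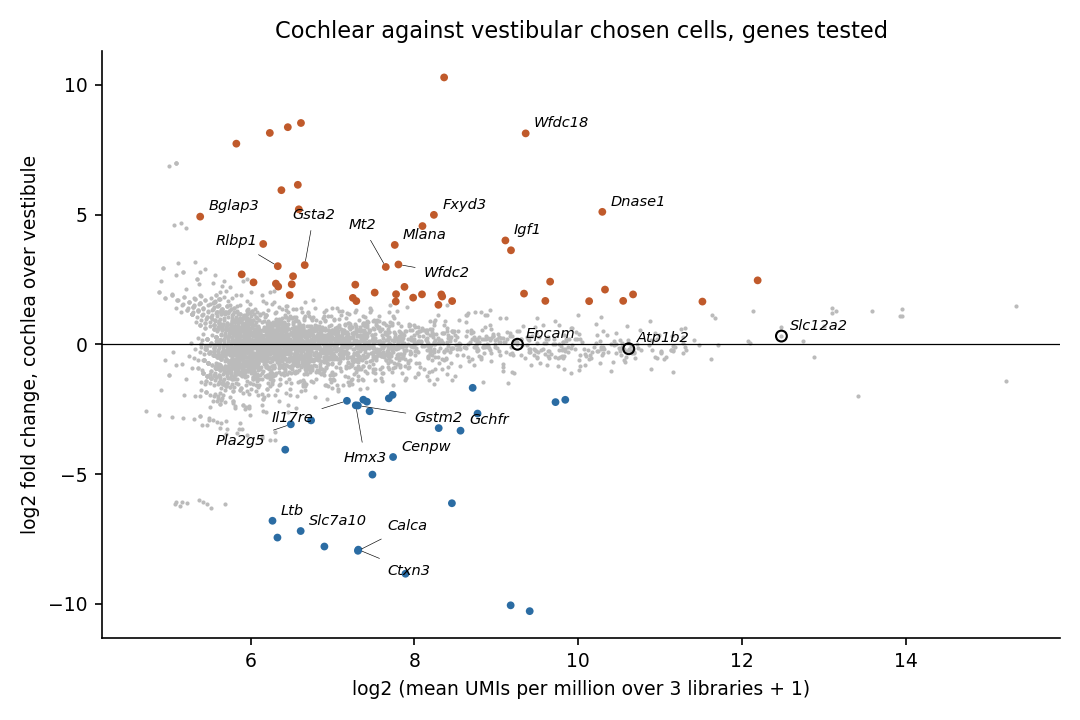
Each point is 1 of 3423 genes tested, with its mean level over the 3 fitted libraries (log2 of CPM + 1) against its log2 fold change, cochlea over vestibule. Orange points (50) were called higher in the cochlea and blue points (29) higher in the vestibule, the 20 named genes are labelled, and open circles mark Slc12a2, Atp1b2 and Epcam, which lie between -0.17 and 0.32.

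Of the 13 potassium secretion genes, 9 could be tested, with a median log2 fold change of 0.29. Atp1b1 moved with the markers of other cells described below. It was at 1567 CPM in marginal-like cells with at least 2 melanocyte markers. In the 7 without marker counts of other lineages, neurons included, it was at 141 CPM. Atp1b1 was called higher in the cochlea (1.68 ± 0.42 SE, edgeR adjusted p = 0.0047, called in 9 of 16 fits) and no gene of the list higher in the vestibule, beside 1.46 and 0.847% of all genes. At an unadjusted edgeR p under 0.05, 2 of the 9 passed, beside 9.06% of all genes. Slc12a2 gave 0.32 ± 0.54 (SE, edgeR adjusted p = 0.956) and Atp1b2 -0.17 ± 0.45, neither past the threshold, and a difference of the size of these errors was not detectable at this depth. Kcnj10 fell just outside (1.50 ± 0.46 SE, edgeR adjusted p = 0.05004).

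Among other lists, 3 of 16 tested antioxidant genes were higher in the cochlea, beside 1.46% of all genes, namely the metallothionein genes Mt1 (1.93) and Mt2 (2.99) and the thioredoxin gene Txn1 (1.94), with a list median of 0.14. Mt1 stood at 3034 CPM in cochlea replicate 3 against 872 and 976 CPM in vestibule replicates 3 and 4. Txn1 was at 411 CPM in marginal-like cells, near the 399.8 CPM of other cochlear cells, and at 0 in the cell of cochlea replicate 5. It was at 462 CPM in marginal-like cells with at least 2 melanocyte markers and 272 CPM in the rest. Hmx3, higher in the vestibule, was the single call among 11 tested transcription factor genes, beside 0.847% of all genes. Of 6 tested genes for senescence, antigen presentation and inflammation, Spp1 alone was called, higher in the cochlea, beside 1.46% of all genes. Spp1, encoding the secreted phosphoprotein osteopontin, stood at 9887 and 3882 CPM in cochlea replicates 3 and 5 and at 2182, 2015, 2115 and 2587 CPM in the vestibule (2.47 ± 0.51 SE, edgeR adjusted p = 0.00015). Other vestibular cells had 9379 CPM of it, more than the dark-like cells, and cochlear macrophage-gated cells had 2304 CPM.

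No member was called among 85 nuclear respiratory chain genes (median -0.01), 13 mitochondrial genome genes (median 1.10), 9 tight junction and adhesion genes (0.01), 4 acid-base, chloride and water transport genes (0.89), 3 calcium and magnesium transport genes (-1.11), 2 gap junction genes, 2 sodium absorption genes, 3 immediate early genes or 1 basement membrane gene. At an unadjusted edgeR p under 0.05, where 9.06% of all genes lay, 3 of the nuclear respiratory, 5 of the mitochondrial genome, 3 of the tight junction, 1 of the acid-base and 1 of the calcium and magnesium genes passed, and none of the rest. DESeq2 called none of them either. Atp2b1, the plasma membrane calcium pump gene, was at 477 CPM in the cochlea and at 1488, 994, 1420 and 1724 CPM in the vestibule without passing (-1.11 ± 0.46 SE, edgeR adjusted p = 0.318). None of 14 genes for receptors that act on endolymph secretion had enough UMIs to be tested. Of 6 tested secreted and apical matrix genes, Wfdc2 and Epyc were called higher in the cochlea, beside 1.46% of all genes, the latter with 93.6% of its UMIs in 1 cell. Ptgds, encoding prostaglandin D synthase, was at 68320 CPM in cochlea replicate 3 and 28957 and 27780 CPM in vestibule replicates 3 and 4, but did not pass (1.48 ± 0.73 SE, edgeR adjusted p = 0.516).

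Markers of other cell types were uneven between the organs. Of 6 melanocyte markers (Dct, Pmel, Tyr, Tyrp1, Mlana, Kcnj13), 4 had UMIs in marginal-like cells, and Pmel and Tyrp1 were at 0. Their sum was 8055 and 3106 CPM in cochlea replicates 3 and 5 and 99.2, 6531, 0 and 0 CPM in vestibule replicates 1, 3, 4 and 5. Dct was the most abundant, at 7074 CPM in marginal-like and 3935 CPM in dark-like cells, and in the vestibule 75.2% of its UMIs came from 1 cell of 43844 UMIs. A UMI in at least 2 of the 6 markers was found in 17 of 26 marginal-like and 4 of 64 dark-like cells. No doublet caller was run, and whether these cells are pairs of cells in 1 droplet, took up free RNA or express the genes themselves was not tested.

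To see which cochlear values move with these markers, the 17 marginal-like cells that carried at least 2 were set beside the 9 that did not, with no test. Slc12a2 was alike, at 5857 CPM with and 6318 CPM without the markers. Dnase1 was at 2920 CPM with and 5299 CPM without, present in 14 of 17 and 9 of 9 cells. Igf1 was at 1279 and 2016 CPM, Spp1 at 7597 and 15648 CPM, Ptgds at 57801 and 92826 CPM, Wfdc2 at 495 and 679 CPM and Mt1 at 2722 and 3805 CPM. These genes were thus not lower in the cells with fewer melanocyte markers.

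The reverse held for a further group. Fxyd3 was at 1138 CPM in cells with the markers and 67.9 CPM in those without, Kcnj10 at 808 and 67.9 CPM, Gsta2 at 322 and 45.3 CPM, Rlbp1 at 247 and 0 CPM, and Atp1b1 at 1567 and 861 CPM. Most of the 861 CPM came from the cell of 13026 UMIs with the neuronal genes. Atp1b1 had a UMI in 3 of the 9 cells, and without that cell and the macrophage-marked cell it was at 141 CPM in the 7 that remained, near the 99.2 to 133 CPM of vestibule replicates 1, 4 and 5. Mlana, itself a marker, was at 784 and 0 CPM. Of the 50 genes called higher in the cochlea, 34 lay above both vestibular libraries in the 9 cells with fewer markers, and 21 were there at or below 50% of their level in the 17. In the 130 melanocyte-gated cochlear cells outside the rule, Dnase1 was at 64.1 CPM and Igf1 at 140 CPM, below both groups of marginal-like cells.

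**Figure D4:**
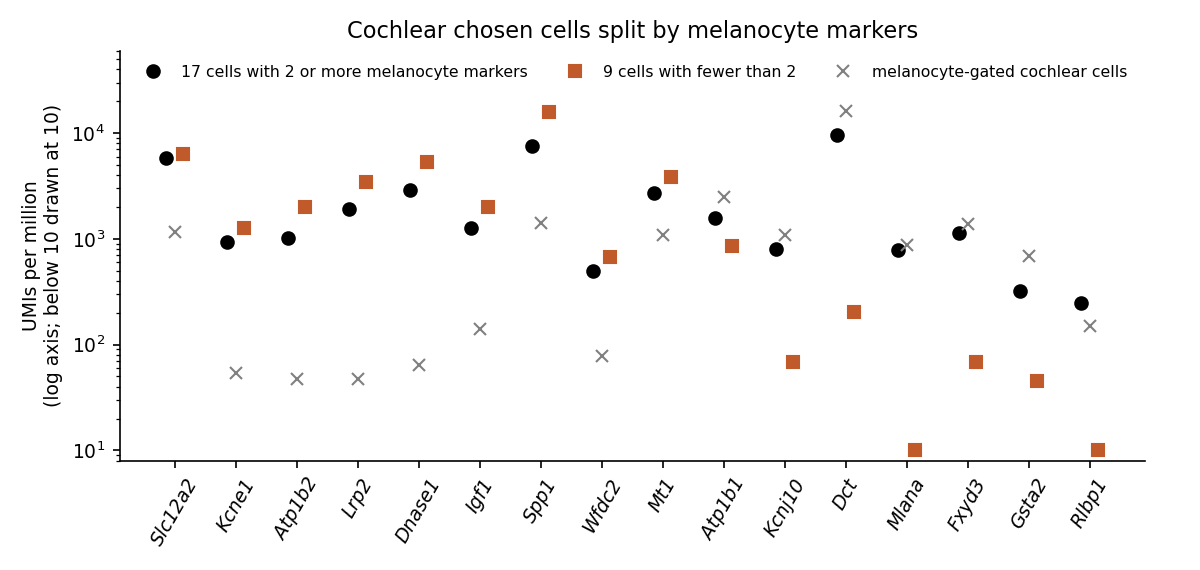
Level in CPM (log axis) of 16 genes in the 17 marginal-like cells with at least 2 melanocyte markers (black circles), the 9 with fewer (orange squares) and 130 melanocyte-gated cochlear cells outside the rule (grey crosses). Slc12a2 to Mt1 are at similar or higher levels in the 9 cells, while Atp1b1 to Rlbp1 are lower there.

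Markers of further lineages were counted in the same way. Fibrocyte genes summed to 557 CPM in cochlea replicate 3, most of it Car3 from 1 cell, and to 99.2, 1325, 488 and 279 CPM in vestibule replicates 1, 3, 4 and 5, with Coch the most abundant there. At least 3 of these 8 markers were present in 1 marginal-like and 11 dark-like cells. Coch and Otos, which encode secreted fibrocyte proteins, stood at 571 and 152 CPM in dark-like cells. Other vestibular cells had 4956 and 1775 CPM, and macrophage-gated ones 1494 and 798 CPM. Both genes were called higher in the vestibule, Coch in 13 of 17 fits and Otos in 4 of 13. Their part in the organ comparison was not tested. Haemoglobin and other erythroid genes, at 48169 CPM in other vestibular cells, summed to 261 CPM in dark-like and 103 CPM in marginal-like cells. Granulocyte markers summed to 0 in marginal-like and 2371.5 CPM in dark-like cells, against 3096 and 15918 CPM in other kept cells. Macrophage markers summed to 133 and 79.1 CPM, glial markers to 351 and 208 CPM and endothelial markers to 6.05 and 52.7 CPM in marginal-like and dark-like cells. Supporting cell markers had no UMI in the cochlea and 20 in the vestibule. Of the hair cell genes, Myo6 was at 175 and 284 CPM, below other kept cells (306 and 491 CPM), and the other 5 were at 0 in every marginal-like cell.

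When cells with at least 2 melanocyte markers or at least 3 fibrocyte, macrophage, endothelial or granulocyte markers were left out, 8 marginal-like cells of replicate 3 remained beside 27, 11 and 7 dark-like cells of vestibule replicates 3, 4 and 5. With at least 4 cells per library, an alternative chosen after seeing the data, 52 genes were called higher in the cochlea and 23 in the vestibule. Of the original 50 cochlear calls 31 could be tested and 23 were called, and of the 29 vestibular calls 18 could be tested and 10 were called. The 8 still held the cochlear cell of 13026 UMIs with the neuronal genes, and the 27 a dark-like cell with 3 neuron markers. Without these 2 cells as well, 30 genes were called higher in the cochlea and 9 in the vestibule, of the original 50 calls 18 could be tested and 10 were called, and of the 29 calls 17 could be tested and 5 were called.

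**Figure D5:**
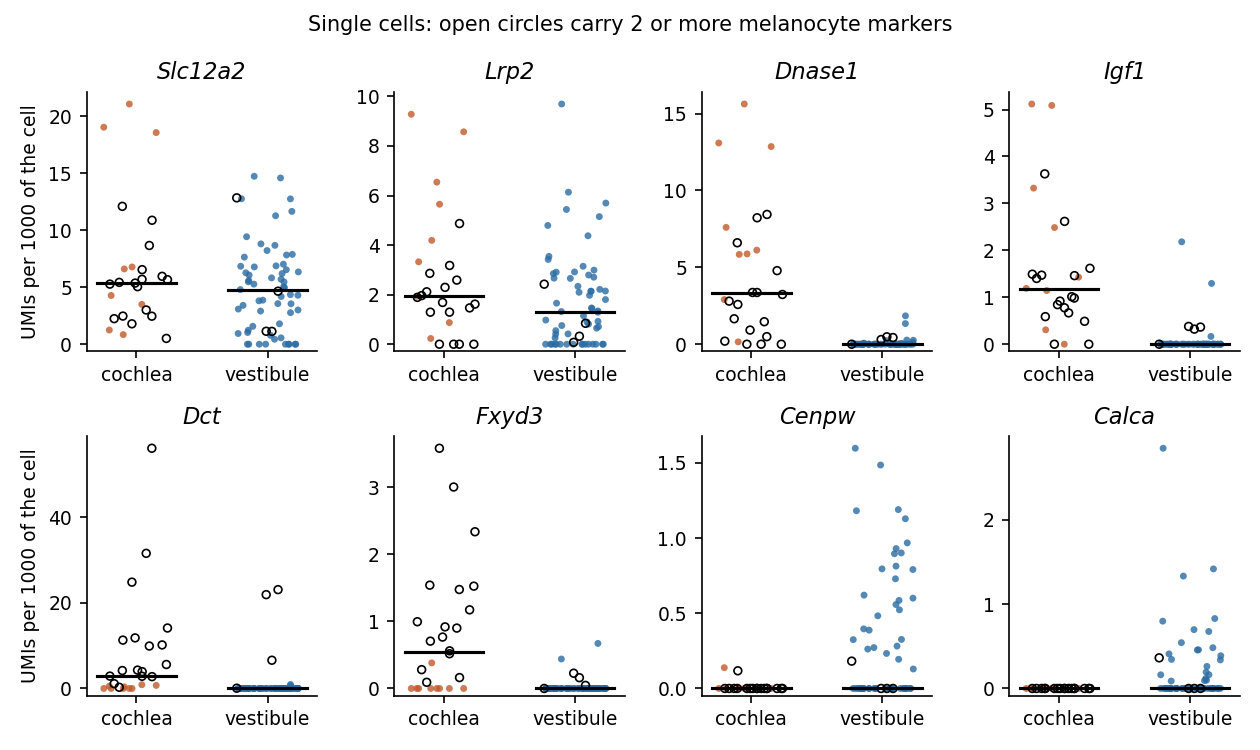
UMIs per 1000 of the cell's UMIs for 8 genes in each of 26 marginal-like and 64 dark-like cells; horizontal lines are medians over cells and open circles mark cells with at least 2 melanocyte markers. Slc12a2 and Lrp2 overlap between organs, Dnase1 and Igf1 are seen in 23 of 26 marginal-like cells with and without the markers, Dct and Fxyd3 are high mainly in open circles, and Calca is at 0 in all marginal-like cells.

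The organ comparison depended on which libraries entered. When every library with a chosen cell was used, which adds the single cell of cochlea replicate 5 and vestibule replicates 1 and 5, 1014 genes could be tested, and 10 were called higher in the cochlea and 4 in the vestibule, all among the first 79. The 10 were Dnase1, Fxyd3, Igf1, Mlana, Lgals1, Wfdc2, Selenop, Fbxo2, Dbi and Mt1. The edgeR adjusted p was 6.3e-05 for Dnase1, 0.00085 for Fxyd3 and 0.0066 for Igf1, each larger than with the 3 libraries above. The 4 were Calca, Cenpw, Coch and Rspo3, the last encoding an enhancer of Wnt signalling, which stood at 241 CPM in cochlea replicate 3 and 984 and 1524 CPM in vestibule replicates 3 and 4 (log2 fold change -2.13). These genes were picked out after their values were seen. With the replicate number as a block in the same 6 libraries, which leaves 1 residual degree of freedom, 7 were called higher in the cochlea and 12 in the vestibule.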

How the data were processed

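Single-cell 3′ RNA libraries of cochlea and vestibule (5 each) were deposited as raw UMI counts of 32285 genes per barcode. Per the labels the authors used Cell Ranger 6.1.2, Seurat and mm10; per the file headers replicates 1 and 2 came from Cell Ranger 5.0.1. Those headers state no further filter on the deposited counts.

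Kept cells had 1000 UMIs or more, 200 genes or more, and a mitochondrial share of UMIs below 25%. Members and gene lists were chosen with earlier results of these data known. UMIs were summed per library, and genes passing filterByExpr were tested with edgeR 4.0.16 (TMM, quasi-likelihood, Benjamini-Hochberg at 0.05). Shares were compared by exact permutation over libraries. CPM is per 1000000 UMIs of the summed cells, and intervals cover counting error only. Named genes were the 10 in each direction with the largest log2 fold change among those called, with CPM not overlapping between libraries, at least 20 CPM and 2-fold above other kept cells, all over the 3 fitted libraries, and up to 2 called genes per list and direction. Code was tested on simulated data. Alternatives included DESeq2 1.42.0, RLE factors, thinning to 1000 UMIs and other cell limits. With Pmel and Tyrp1 at or near 0 in the cochlea, the melanocyte gate used Dct, Tyr and Mlana in place of Dct, Pmel and Tyrp1. This choice was made after seeing the data. In vestibular melanocyte-gated cells Pmel and Tyrp1 stood at 389 and 70.6 CPM. Some genes of the lists are not reported here and were left out of the list summaries.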

Additional observations from a re-analysis of the deposited data

Results flagged for a closer look

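Values of 8 groups of 4 libraries were checked for a single distant sample, and chance marks about 1 in 20 such groups. Atp1b1 in dark-like cells stood at 784 CPM in vestibule replicate 3, against 99.2 to 133 CPM in the other 3 vestibular libraries, and 68.5% of its vestibular UMIs came from 1 cell. Outside the quality limits, 43 cells met the gene rule with 25% or more mitochondrial UMIs, 15 in the cochlea and 28 in the vestibule. Their Slc12a2 was at 1723 and 3767 CPM, or 2778 and 6012 CPM with mitochondrial UMIs left out of the total, against 91.7 and 103 CPM in kept cells with no rule gene.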

How the results depend on the processing

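The counts of genes higher in the cochlea and in the vestibule (50 and 29) were 4 and 0 with DESeq2, and 9 and 1 after thinning to 1000 UMIs (466 genes tested). RLE factors and no filter kept both counts within 1.5 times. The settings from here to the omission of each gene's highest cell were chosen after seeing the data. With at least 4 chosen cells per library the counts were 32 and 5, and leaving out each vestibular library in turn then gave 30 and 8 without replicate 1, 87 and 16 without replicate 3, 37 and 11 without replicate 4, and 22 and 3 without replicate 5. At the same 4 cells per library they were 31 and 13 with all 3 rule genes, 32 and 25 with mitochondrial UMIs under 10%, 52 and 23 without cells marked as melanocyte, fibrocyte, macrophage, endothelial or granulocyte, and 30 and 9 without the 2 cells with neuron markers too. With every library they were 10 and 4. Omission of each gene's highest cell kept both within 1.5 times. For 31 genes, the 20 named in the organ comparison and 11 called from the lists, 254 of 382 values from these fits kept their call, 127 kept their direction without passing, and 1 reversed. That was Car3, at -2.80 without its highest cell, which held 97.6% of its cochlear UMIs. The difference in the share of chosen cells, cochlea minus vestibule, was -0.392 percentage points. In the 1 draw of thinning to 1000 UMIs it was -0.235 percentage points and passed (exact permutation p = 0.0286, not adjusted). That pass rests on a narrow gap, 0.197% in cochlea replicate 3 against 0.204% in vestibule replicate 4. By the same exact test it did not pass with all 3 rule genes (-0.134, p = 0.2), with mitochondrial UMIs under 10% (-0.279, p = 0.0571) or, added later, with no limit on them (-0.585, p = 0.0571). Leaving out single libraries gave -0.507 to -0.334.

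With the replicate numbers as a block, the difference in share was -0.392 percentage points (exact permutation p = 0.125, the smallest possible). The libraries with 10 or more cells share only replicate 3 between organs, so the gene counts were blocked with every library, added after seeing the data. This gave 7 and 12, against 10 and 4 without the block, on 1 residual degree of freedom. No value could be had for the gene counts with 10 or more cells per library when requiring all 3 rule genes, fewer mitochondrial UMIs or no other lineage, or when leaving out a fitted library, and replicates 1 and 2 did not enter. The cochlear side of the gene comparison rests on 25 cells of 1 library, so the spread of gene levels between cochlear libraries could not be measured there.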
